A study of Sus scrofa with 22 samples.

Results

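CCNB1, AURKA, CDC20 and BIRC5 are 4 genes of mitosis, here followed in the small intestine of piglets given chemotherapy. They were picked because their levels had differed between the groups of these same piglets, so their levels are described and not tested. The probes were found through the RefSeq accession printed on the array. The 4 genes were hit by 6 probes, out of 43603 probes on the array, of which 6700 could be given a gene symbol (3029 symbols). All 4 were among the 24761 genes tested, and 2653 of those carried a symbol. The others are counted by the identifier printed on the array, so a gene can count more than once.

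The study held 2 experiments on SPF piglets (Large White × Danish Landrace), labelled as 3 days old, that were anaesthetised and fitted with a catheter and an orogastric feeding tube. In the DOX experiment 6 piglets were given doxorubicin, a blocker of topoisomerase II, and another 6 were left untreated. In the BUCY experiment 5 were given busulfan plus cyclophosphamide, both of which alkylate DNA, and 5 were untreated. Total RNA of each piglet, labelled with Cy5, was hybridised to its own two-colour Agilent array beside a Cy3-labelled pool of all samples. The sources used here give no dose, sampling time, gut segment or litter, so a difference between the untreated groups and a difference between the experiments cannot be told apart. Every value below is a log2 ratio of one piglet's RNA to the pool, and a difference of 1 is a doubling.

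The lining of the small intestine is renewed from dividing cells in the crypts, and most other cells of the tissue divide little. Cyclin B1, the product of CCNB1, binds the kinase CDK1 and carries cells into mitosis. Aurora A kinase, from AURKA, matures the centrosomes and builds the spindle. CDC20 activates the anaphase-promoting complex, the ubiquitin ligase that marks cyclin B1 and securin for destruction and so lets the chromosomes part. Survivin, from BIRC5, belongs to the chromosomal passenger complex with Aurora B and also to the family of inhibitors of apoptosis. The mRNAs of such genes are made mostly in G2 and M phase, and in a piece of tissue fewer cells of a type and less RNA per cell cannot be told apart.

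On the pig assembly Sscrofa11.1, CCNB1 lies at chr16:47338239-47348385, AURKA at chr17:56954838-56972435, CDC20 at chr6:167886266-167890587 and BIRC5 at chr12:3747276-3755214. These are the limits of each gene in RefSeq. Where in its gene a probe binds is not stated there. CCNB1 and CDC20 had 1 probe each, and AURKA and BIRC5 had 2 each. All 6 probes stood well above background on all 22 arrays, and 0 spots were saturated on any array. For AURKA and BIRC5 the brighter probe is given first.

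CCNB1 stood lowest in the untreated piglets of the BUCY experiment. Their 5 log2 ratios were -1.72, -1.95, -1.97, -2.23 and -1.32 (mean -1.84 ± 0.34, SD, n = 5). After BUCY the 5 ratios were -0.52, 0.28, -0.47, -0.75 and 0.67 (mean -0.16 ± 0.60, SD, n = 5). Each BUCY treated piglet lay above each untreated one, with a gap of 0.57 between the groups. The means differed by 1.68 (SE 0.233), or 3.21-fold. In the DOX experiment the untreated piglets ran from 0.36 over a median of 0.55 to 0.78 (mean 0.57 ± 0.18, SD, n = 6). The DOX treated ones ran from -0.50 to 0.43 around a mean of -0.03 ± 0.37 (SD, n = 6). All 6 DOX treated piglets were below the mean of the untreated ones, the ranges overlapped, and the means differed by -0.61 (SE 0.213), or 1.52-fold lower after DOX.

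AURKA had the same order of group means as CCNB1. The untreated BUCY piglets had -0.94, -1.15, -1.02, -0.96 and -0.76 (mean -0.96 ± 0.14, SD, n = 5). The BUCY treated piglets had -0.49, -0.23, -0.32, -0.70 and 0.46 (mean -0.26 ± 0.44, SD, n = 5). Again the groups did not overlap, but the gap was only 0.06, and piglet 5 alone reached a ratio above 0. The difference after BUCY was 0.71 (SE 0.174), or 1.64-fold. Untreated DOX piglets ranged from 0.10 over a median of 0.48 to 0.86 (mean 0.49 ± 0.26, SD, n = 6), and treated ones from -0.28 over 0.15 to 0.35 (mean 0.07 ± 0.25, SD, n = 6). The DOX difference was -0.42 (SE 0.159), or 1.34-fold lower, with overlapping ranges and all 6 treated piglets below the untreated mean. The second AURKA probe gave differences of 0.78 after BUCY and -0.34 after DOX, and on single arrays it departed from the brighter probe by -0.18 to 0.24.

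CDC20 was higher after BUCY, with a wide spread between piglets. In the untreated BUCY group the ratios were -0.39, -0.75, -1.17, -1.27 and -0.56 (mean -0.83 ± 0.38, SD, n = 5). The BUCY treated group had 0.03, 0.87, 0.23, -0.34 and 0.83 (mean 0.32 ± 0.52, SD, n = 5). BUCY treated piglet 4 came within 0.05 of the highest untreated piglet, and the groups did not overlap. The difference was 1.15 (SE 0.280), or 2.22-fold. Untreated DOX piglets spanned 0.10 to 1.64 with a median of 0.88 (mean 0.85 ± 0.60, SD, n = 6), the widest spread of any group for CDC20. DOX treated piglets spanned -0.38 to 0.60 with a median of 0.33 (mean 0.26 ± 0.34, SD, n = 6), so the ranges overlapped, with all 6 below the untreated mean and a difference of -0.59 (SE 0.255), or 1.50-fold lower.

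BIRC5, like CCNB1, AURKA and CDC20, set the untreated BUCY piglets apart from every other piglet. Their ratios were -1.54, -1.68, -1.71, -1.74 and -1.16 (mean -1.57 ± 0.24, SD, n = 5). The BUCY treated piglets had -0.46, 0.57, 0.55, -0.40 and 0.49 (mean 0.15 ± 0.53, SD, n = 5). Piglets 2, 3 and 5 of that group were high and piglets 1 and 4 low, and a gap of 0.70 separated all 5 from the untreated ones. BIRC5 was 1.72 higher after BUCY (SE 0.185), or 3.29-fold. In the DOX experiment the untreated piglets lay close together, from 0.10 over 0.23 to 0.34 (mean 0.23 ± 0.09, SD, n = 6), and the treated ones went from -0.43 over 0.11 to 0.27 (mean 0.05 ± 0.25, SD, n = 6). That DOX difference of -0.18 (SE 0.169) was about the size of its standard error, and 5 of 6 treated piglets were below the untreated mean. The second BIRC5 probe differed by 1.45 after BUCY and -0.21 after DOX, and departed from the brighter one by -0.58 to 0.08.

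Set in order, the group means ran from untreated BUCY piglets at the bottom to untreated DOX piglets at the top for all 4 genes, with both treated groups between. Untreated BUCY piglets did not overlap with BUCY treated piglets for 4 of 4 genes, where 3.2% of genes lay wholly higher after BUCY. They did not overlap with untreated DOX piglets for 4 of 4 genes (9.01% of genes lay wholly lower), nor with DOX treated piglets for 4 of 4 (7.91% of genes). The genes were chosen on these very differences, so nothing is read from those counts. The narrowest of these gaps was that of CDC20 between untreated BUCY and DOX treated piglets, at 0.01. The upper 3 groups were not separated: BUCY treated piglets overlapped with both DOX groups for each gene. DOX treated piglets overlapped with untreated ones for all 4 genes, where 1.38% of genes lay wholly lower.

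The untreated piglets of the BUCY experiment were below those of the DOX experiment, with differences of -2.41 for CCNB1 (SE 0.223), -1.46 for AURKA (SE 0.167), -1.68 for CDC20 (SE 0.268) and -1.80 for BIRC5 (SE 0.177). These are differences of 5.31-fold, 2.75-fold, 3.20-fold and 3.48-fold. BUCY treated piglets had means below those of untreated DOX piglets too, with differences of -0.73, -0.75, -0.53 and -0.08 in the same order. The BUCY difference and the difference between untreated groups share the 5 untreated BUCY piglets, so a low value there moves both. For the second probes the untreated difference was -1.58 in AURKA and -1.54 in BIRC5.

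The BUCY difference minus the DOX difference was 2.29 for CCNB1 (SE 0.315), 1.13 for AURKA (SE 0.236), 1.74 for CDC20 (SE 0.379) and 1.90 for BIRC5 (SE 0.251). It is made of the same piglets as both single differences. Seen against all genes tested, 0.178% of genes had a higher BUCY difference than CCNB1, 0.162% than BIRC5, 0.989% than CDC20 and 4.13% than AURKA. Lower DOX differences than those of CCNB1, CDC20, AURKA and BIRC5 were found in 0.893%, 0.977%, 2.62% and 14.1% of genes. Since the genes were chosen on such differences, nothing is read from these shares.

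The arrays were spread over 7 slides and 3 scan days, and each of the larger batches held several groups. The BUCY difference within scan days 1, 2 and 3 was 1.76, 1.62 and 1.99 for CCNB1 and 0.67, 0.45 and 1.22 for AURKA. It was 1.22, 1.21 and 1.39 for CDC20 and 1.70, 1.82 and 1.65 for BIRC5. The DOX difference on days 1 and 3 was -0.65 and -0.44 for CCNB1, -0.46 and -0.44 for AURKA, and -0.67 and -0.47 for CDC20. For BIRC5 it was -0.03 and -0.27, and day 2 held no untreated DOX piglet. The untreated difference on days 1 and 3 was -2.54 and -1.80 for CCNB1, -1.53 and -1.25 for AURKA, -1.80 and -1.23 for CDC20, and -1.87 and -1.41 for BIRC5. The sign was thus the same on each day that held both groups, although a day can hold as few as 1 piglet of a group. Within slides the DOX difference was less even. On slides 1, 2 and 6 it was -0.59, -0.91 and -0.05 for CDC20 and 0.05, -0.10 and -0.34 for BIRC5. With slide as a fixed block it was -0.42 for CCNB1 (SE 0.190), -0.28 for AURKA (SE 0.180), -0.34 for CDC20 (SE 0.260) and -0.07 for BIRC5 (SE 0.174).

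Between 59.7% and 72.5% of probes stood well above background per array. The lowest share was that of BUCY treated piglet 3, and BUCY treated piglet 2 had 66.3%, with 4 other arrays between 64.3% and 66.3%. Piglets 2 and 3 had been picked for leaving out together from earlier results of these data, not by this share. Without these 2 piglets the BUCY difference was 1.64 for CCNB1, 0.72 for AURKA, 1.002 for CDC20 and 1.45 for BIRC5. DOX treated piglet 6 was the lowest of its group for all 4 genes. Leaving it out moved the DOX difference to -0.51 for CCNB1, -0.35 for AURKA, -0.46 for CDC20 and -0.09 for BIRC5.

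Marker genes of the tissue also moved between the groups. Of 18 enterocyte markers listed, 9 were tested and all 9 stood well above background on all arrays, so the label of small intestine matched its markers. The mean of the enterocyte list was -0.55 after BUCY (single piglets from -2.27 to 0.54) and 0.18 without it, 0.01 after DOX and 0.06 without it. The list was uneven. After BUCY 4 of the 9, TMPRSS15, DPP4, SLC5A1 and ANPEP, passed as lower and 0 as higher (limma), where 9.05% of all genes fell and 8.23% rose. FABP2 (-0.02) and APOA4 (-0.05) hardly differed, and FABP1 was higher by 0.54 (limma adjusted p = 0.509). The list of T and NK cell markers (14 of 19 tested, 6 well above background on all arrays) stood at -1.18 after BUCY (-1.41 to -1.02) against 0.07 in untreated BUCY piglets (-0.30 to 0.42), and at -0.26 after DOX against 0.32. Of the crypt and stem cell list only ASCL2, SOX9 and TERT were tested (3 of 15), with a mean of 0.21 after BUCY (-0.10 to 0.69) and -0.13 without it (-0.22 to -0.03). Only SOX9 passed after BUCY (0.68, limma adjusted p = 0.00782), and ASCL2 (0.10) and TERT (0.25) did not. The macrophage and neutrophil list (5 of 10 tested) stood at 0.29 after DOX (-0.05 to 0.51) against -0.26 untreated (-0.42 to -0.14), and at -0.13 after BUCY (-0.34 to 0.28) against -0.53 untreated (-0.77 to -0.33). In that list CD163 and CD14 rose after both drugs and AIF1 fell after BUCY (limma). The 2 B and plasma cell markers tested, of 9, stood at -0.11 after DOX (-0.41 to 0.07) against 0.23 (-0.01 to 0.54), and at -0.37 after BUCY (-0.45 to -0.26) against -0.43 (-0.57 to -0.28). These 2 genes moved apart. CD79A differed by -0.74 after DOX (limma adjusted p = 0.0219) and by -0.23 after BUCY (limma adjusted p = 0.364). XBP1 differed by 0.06 after DOX (limma adjusted p = 0.838) and by 0.33 after BUCY (limma adjusted p = 0.0548). Smooth muscle and fibroblast markers (4 of 10 tested) stood at 0.42 after BUCY (-0.07 to 1.40) and -0.07 without it (-0.31 to 0.25). In the DOX experiment they stood at -0.17 treated (-1.28 to 0.56) and -0.05 untreated (-0.33 to 0.21). ACTA2, CNN1 and DES differed by 0.45, 0.71 and 1.02 after BUCY, and only DES passed (limma adjusted p = 0.0293). COL1A2, a collagen gene, differed by -0.22 after BUCY (limma adjusted p = 0.535) and -0.88 after DOX (limma adjusted p = 0.0456). The part of these markers in the results for the mitotic genes was not tested.

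Other genes of the cell cycle were taken from 9 lists that together named 230 genes besides the 4. Of these, 40 could be found on the array by name and 39 were tested, and the 25 genes of the spindle checkpoint and kinetochore list were not among them. Genes were called at an adjusted p under 0.05 (limma, two-sided, Benjamini-Hochberg over all 24761 genes). Most of the 24761 carried no symbol, so shares over all genes are mostly shares of array identifiers. After BUCY, 18 of the 39 rose and 0 fell, where 8.23% of all genes rose and 9.05% fell (17.3% together). Their median difference was 0.50, against -0.00 over all genes. An unadjusted p under 0.05 (limma) was found for 26 of 39, and for 7995 of all 24761 genes. After DOX 0 of 39 were called in either direction (limma), where 0.368% of genes rose and 0.481% fell (0.848% together), with a median of -0.12 against 0.01. There 8 of 39 had an unadjusted p under 0.05 (limma), beside 3417 of all 24761 genes. Between the untreated groups 23 of 39 were lower in the BUCY experiment and 1 higher, where 12.2% and 13% of all genes were lower and higher (25.2% together), and the median was -0.56.

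Among the partners of cyclin B1, CDK1, its kinase, rose by 1.29 after BUCY (SE 0.204, limma adjusted p = 3.36e-04) from a mean of -1.64 ± 0.29 to -0.35 ± 0.51 (SD, n = 5 each). CCNB2, the other mitotic B-type cyclin measured, rose by 0.97 (SE 0.195, adjusted p = 0.0022). CDC25C, the phosphatase that switches CDK1 on, rose by 1.66 (adjusted p = 6.88e-04), and CKS1B, a small subunit of CDK complexes, by 0.77 (adjusted p = 3.58e-04). After DOX the differences were -0.31 for CDK1, -0.37 for CCNB2, -0.14 for CDC25C and -0.19 for CKS1B, and limma's adjusted p lay between 0.37 and 0.851. CDK1, CCNB2, CDC25C and CKS1B also passed as lower in untreated BUCY than in untreated DOX piglets (limma). Those differences were -2.09, -1.66, -1.11 and -0.76 in the same order, and they share the untreated BUCY piglets with the BUCY differences. PKMYT1, a kinase that holds CDK1 inactive, did not pass after BUCY (0.19, limma adjusted p = 0.140). It was well above background on only 1 of 5 arrays of BUCY treated piglets, so this value rests on dim spots. On the 5 arrays of untreated BUCY piglets PKMYT1 was never well above background, so no fold is given, and it passed as lower there than in untreated DOX piglets (limma adjusted p = 0.0079).

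Of the anaphase-promoting complex that CDC20 activates, 4 genes were tested. CDC23, a subunit, rose by 0.24 after BUCY (limma adjusted p = 0.0316), but it was well above background on only 1 of 5 arrays of untreated BUCY piglets, so both this value and its untreated difference rest on dim spots. CDC16 and ANAPC16, also subunits, did not pass, and FZR1, which activates the complex in place of CDC20 after mitosis, differed by -0.15 after BUCY (adjusted p = 0.482) and -0.44 after DOX (adjusted p = 0.107). Both CDC16 and CDC23 were lower in untreated BUCY than in untreated DOX piglets, with limma differences of -0.42 (adjusted p = 0.0222) and -0.25 (adjusted p = 0.0153). FZR1 there differed by -0.12 (adjusted p = 0.567).

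Among the kinases and spindle proteins nearest to AURKA and BIRC5, 3 were tested and all 3 rose after BUCY. AURKB, the kinase of the chromosomal passenger complex that holds survivin, rose by 0.56 (SE 0.127, limma adjusted p = 0.00538). PBK, a kinase active in mitosis, rose by 1.26 (adjusted p = 3.35e-04), and STMN1, which takes microtubules apart, by 0.51 (adjusted p = 0.00748). None of the 3 passed after DOX, where AURKB differed by -0.20 (adjusted p = 0.462). All 3 were lower in untreated BUCY than in untreated DOX piglets and passed the threshold, with differences of -0.68 for AURKB, -1.65 for PBK and -0.57 for STMN1.

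Of the family and targets around survivin in apoptosis, CASP8, DIABLO and XIAP did not pass after BUCY or DOX. DIABLO, which antagonises the inhibitors of apoptosis, was lower in untreated BUCY than in untreated DOX piglets, with a difference of -0.62 (limma adjusted p = 0.0238).

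Genes of DNA replication and chromatin rose in part. PRIM1, the catalytic subunit of primase, rose by 0.87 after BUCY (limma adjusted p = 0.00278), POLD2 by 0.60 and POLD3 by 0.94, both subunits of DNA polymerase delta. HMGB2, a chromatin protein, rose by 0.57 (adjusted p = 0.0123). TOP2A, the topoisomerase that doxorubicin acts on, differed by 0.52 after BUCY (adjusted p = 0.222) and by -0.58 after DOX (adjusted p = 0.324), neither of which passed. TOP2A was lower in untreated BUCY than in untreated DOX piglets, with a difference of -1.52 (adjusted p = 3.07e-04). PRIM1, PRIM2 and DBF4, the activator of the kinase CDC7, were lower there too, with differences of -1.53, -1.02 and -0.84.

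MYBL2, a transcription factor that works on genes of G2 and M phase, rose by 1.55 after BUCY (SE 0.234, limma adjusted p = 2.30e-04) from -1.22 ± 0.24 to 0.33 ± 0.64 (SD, n = 5 each). It differed by -0.18 after DOX (adjusted p = 0.748). CCND2, a G1 cyclin, rose by 1.21 after BUCY (adjusted p = 0.0129). Of 9 tested genes from the list of cell cycle inhibitors and G2 arrest, 4 rose after BUCY and 0 fell past the threshold, and 3 had a value below 0. Those that rose included CHEK2, a checkpoint kinase, by 0.95 (adjusted p = 4.87e-05), CDKN3, a phosphatase that acts on CDKs, by 1.29 (adjusted p = 3.88e-05), and SFN, known for arrest in G2, by 2.31 (adjusted p = 0.00162). GADD45A, which acts in growth arrest after DNA damage, differed by -0.62 (adjusted p = 0.131) and CDKN1B, the CDK inhibitor p27, by -0.28 (adjusted p = 0.0560). BTG2, an antiproliferative gene, passed narrowly with 0.54 (adjusted p = 0.0492). MYBL2, CHEK2, CDKN3 and SFN also passed as lower in untreated BUCY than in untreated DOX piglets (limma), with differences of -1.74 for MYBL2 and -2.31 for SFN. CDKN1B was the 1 gene of the 39 that passed the threshold as higher in untreated BUCY than in untreated DOX piglets (0.32, limma adjusted p = 0.0165). In all, 7 of the 39 had a value above 0 there.

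**Figure D1:**
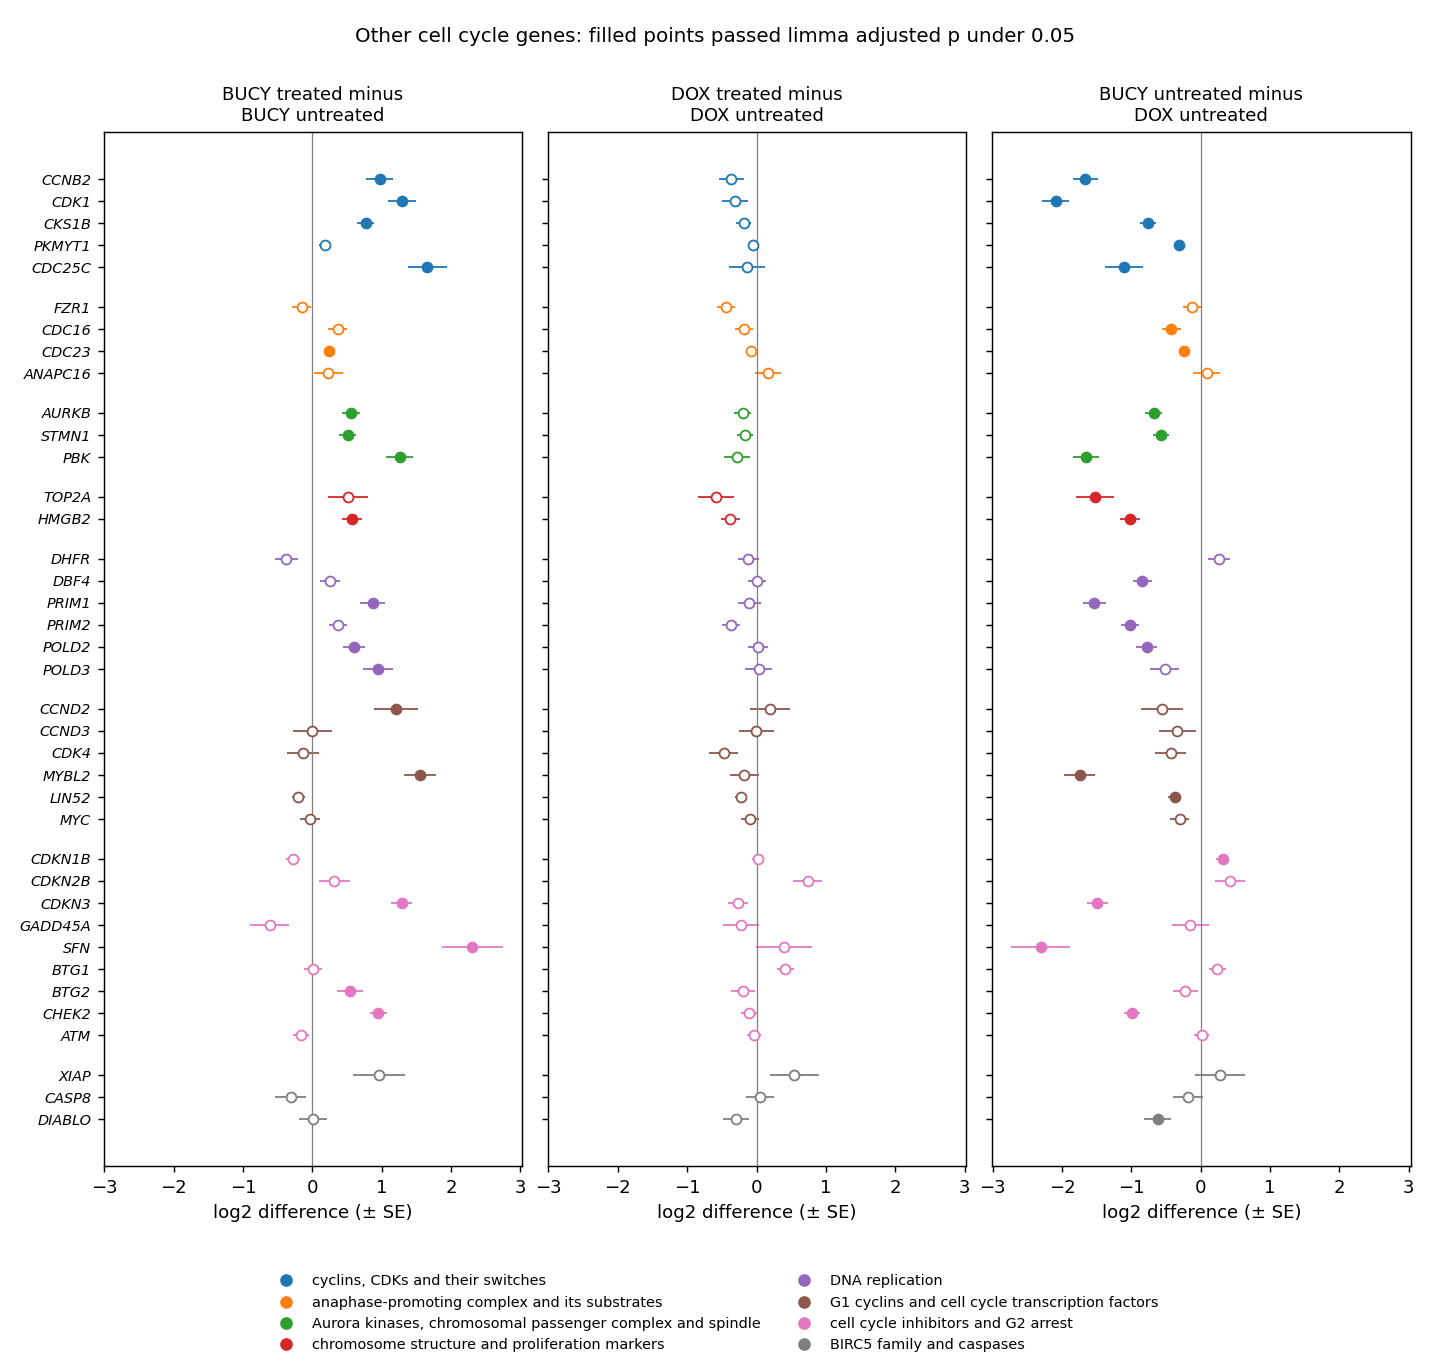
Log2 differences with SE of other cell cycle genes tested (rows, coloured by list) after BUCY, after DOX and between the untreated groups, with filled points for genes past limma's adjusted p of 0.05. Of all 39 tested, 18 rose after BUCY, 0 passed after DOX and 23 were lower in the untreated BUCY piglets.

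The BUCY and DOX differences themselves differed for 13 of the 39 genes, all 13 with the higher value under BUCY, where 3.14% of all genes passed in that direction and 2.73% in the other (5.88% together). CDKN3 (1.56, limma adjusted p = 4.00e-04), CHEK2 (1.06, adjusted p = 0.00106) and CDK1 (1.60, adjusted p = 0.00219) were the 3 with the smallest p. TOP2A did not pass (1.10, adjusted p = 0.104), and neither did SFN (1.91, adjusted p = 0.0636). All 4 groups enter this contrast, and the 13 genes were also lower in untreated BUCY than in untreated DOX piglets (limma). For CDK1 the means were -1.64 untreated and -0.35 treated in the BUCY experiment, and 0.45 and 0.14 in the DOX experiment. For CDC25C they were -1.33, 0.33, -0.22 and -0.36 in that order. The part of each group in the contrast was not tested. MYBL2 and SFN were called after BUCY under every alternative setting tried, while CDC23 lost its call in 11 of 40 settings and BTG2 in 29 of 41.

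These counts depended on how each array was normalised. With median centring of the arrays in place of the loess fit, the median over all genes moved to -0.125 after BUCY, and 542 genes rose while 2699 fell, against 2037 and 2240 in the setting reported here. In that setting 5 of the 39 cell cycle genes rose and 1 fell, with a median of 0.04, and 0 of 39 passed for the BUCY minus DOX difference. The split of untreated differences turned to 1453 higher and 2397 lower genes, with 21 of the 39 lower. The 4 mitotic genes kept their signs, at 1.19 for CCNB1, 0.52 for AURKA, 0.79 for CDC20 and 1.23 for BIRC5 after BUCY. Without BUCY treated piglets 2 and 3, 12 of the 39 rose, and the overall number of genes called after BUCY went from 4277 to 1125.

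Group differences were the basis on which the 4 genes were chosen, but how they varied between piglets of one group was not. Each piglet's deviation from its own group mean was therefore compared between genes over all 22 piglets, in 6 pairs, with a two-sided permutation test within groups and Benjamini-Hochberg adjustment over the 6. All 6 pairs deviated together. CCNB1 and AURKA had Pearson r = 0.764 (permutation p = 2.00e-04, adjusted 6.00e-04) and Spearman rho = 0.744 (permutation p = 2.50e-04). CCNB1 and CDC20 had r = 0.707 (permutation p = 1.10e-04, adjusted 6.00e-04) and rho = 0.743 (permutation p = 1.00e-04). CCNB1 and BIRC5 had r = 0.745 (permutation p = 0.00595, adjusted 0.00595) and rho = 0.759 (permutation p = 0.00153).

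AURKA and CDC20 had r = 0.709 (permutation p = 5.80e-04, adjusted 0.00116) and rho = 0.720 (permutation p = 5.70e-04). The lower correlations were those of BIRC5 with AURKA, at r = 0.627 (permutation p = 0.00407, adjusted 0.00488) and rho = 0.586 (permutation p = 0.0064), and with CDC20, at r = 0.616 (permutation p = 0.00181, adjusted 0.00271) and rho = 0.634 (permutation p = 0.00425). Without the 2 piglets farthest from the median of the first gene, r was 0.797, 0.677, 0.733, 0.724, 0.618 and 0.589 for the pairs in this order. Within scan day 1 (n = 10) it was 0.729, 0.702, 0.862, 0.746, 0.518 and 0.575, and within day 3 (n = 8) 0.857, 0.779, 0.894, 0.836, 0.728 and 0.712. Day 2 held too few piglets for a value. Ratios of one array share its labelling and hybridisation. The median r of all genes with CCNB1 was -0.03, and 0.311% of genes had a higher r with CCNB1 than AURKA had. Over the 6 pairs, taken from either gene, this share ran from 0.0727% (with AURKA, above CCNB1) to 2.02% (with BIRC5, above CDC20).

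Some piglets deviated the same way for each gene. DOX treated piglet 6 and untreated DOX piglet 2 were low for all 4 genes, as were BUCY treated piglets 1 and 4. Untreated BUCY piglet 3 was low for all 4 as well. DOX treated piglets 1, 4 and 5 and untreated DOX piglet 1 were high for all 4. So were BUCY treated piglets 2 and 5 and untreated BUCY piglets 1 and 5. Some of these deviations were small. BUCY treated piglet 5 and untreated BUCY piglet 5 shared slide 7 and scan day 3. Untreated DOX piglets 5 and 6, on that slide too, deviated both ways. Without BUCY treated piglets 2 and 3 (n = 20) r ranged from 0.637 to 0.904 over the 6 pairs.

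**Figure D2:**
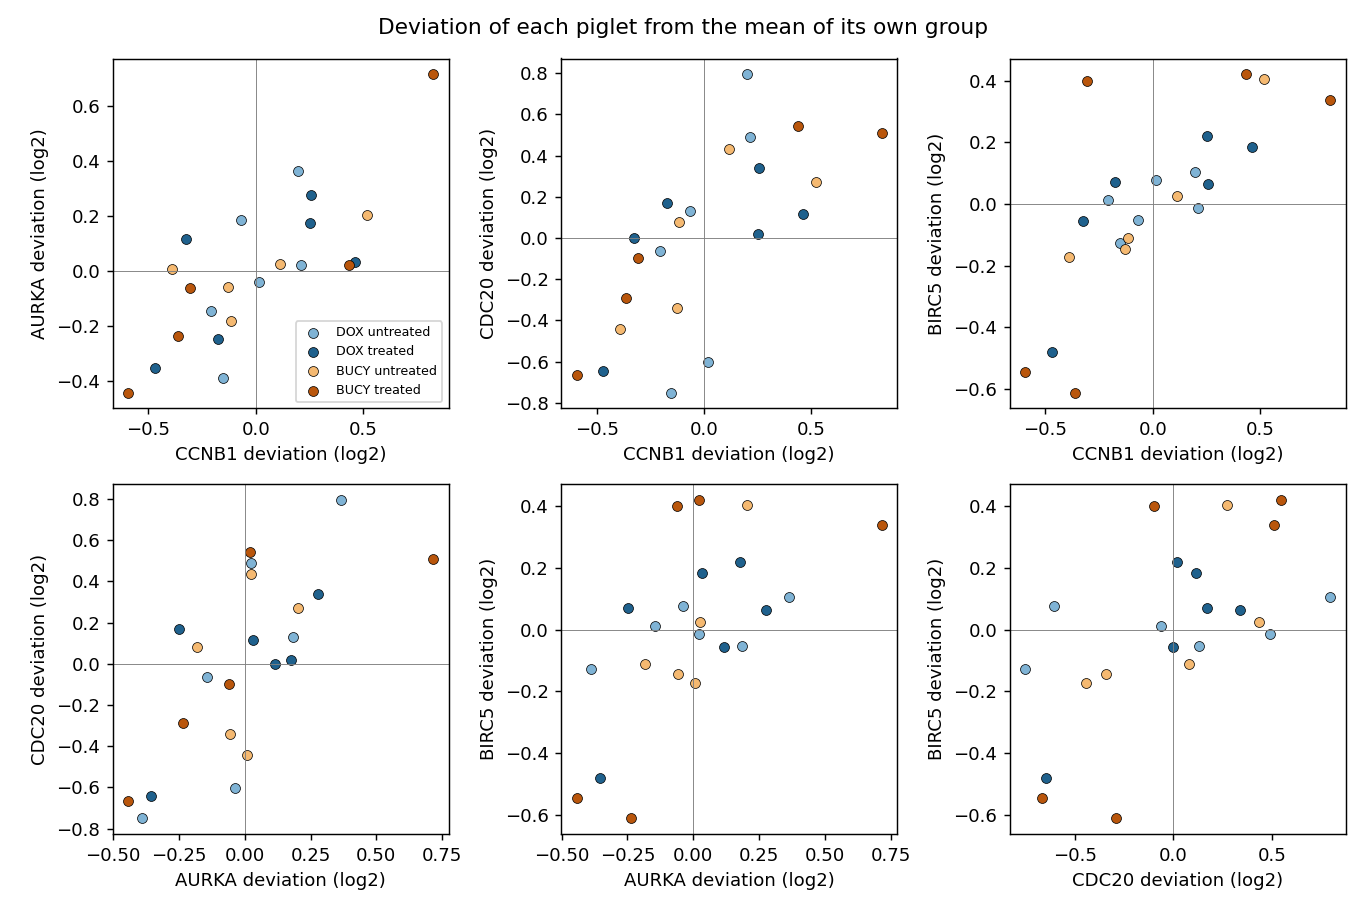
Deviation of each piglet from its group mean (log2) for the 6 pairs of the 4 genes, 1 point per piglet and coloured by group. Piglets above their group mean for one gene tended to be above it for the other, with r from 0.616 to 0.764 over 22 piglets.

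The genes whose profile over the 22 arrays was nearest to each of the 4 were found by the root mean square difference of ratios centred on their mean, among the other genes with a symbol. This measure counts group differences and single piglets alike, so it carries the choice of the 4 genes with it. Nearest to CCNB1 were CDK1 (0.233), KPNA2 (0.293), MTFR2 (0.294), SPAG5 (0.329) and PBK (0.340), where the median gene lay at 0.983. Nearest to AURKA were SRSF2 (0.200), CCNB2 (0.207), PPIA (0.216), LMNA (0.229) and NME1 (0.245), with a median of 0.641 over all genes.

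Nearest to CDC20 were SPAG5 (0.291), JPT1 (0.308), KPNA2 (0.311), MTFR2 (0.316) and PCLAF (0.320), against a median of 0.781. Those near BIRC5 included MYBL2 (0.152), SPAG5 (0.245), PBK (0.267) and VARS (0.272), against 0.811. SPAG5, which encodes the spindle protein astrin, thus stood among the 5 nearest of CCNB1, CDC20 and BIRC5. KPNA2, MTFR2 and PBK each stood near a pair of the 4. The 4 genes lay 0.349 to 0.446 from one another, farther than the genes named here lay from theirs.

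**Figure D3:**
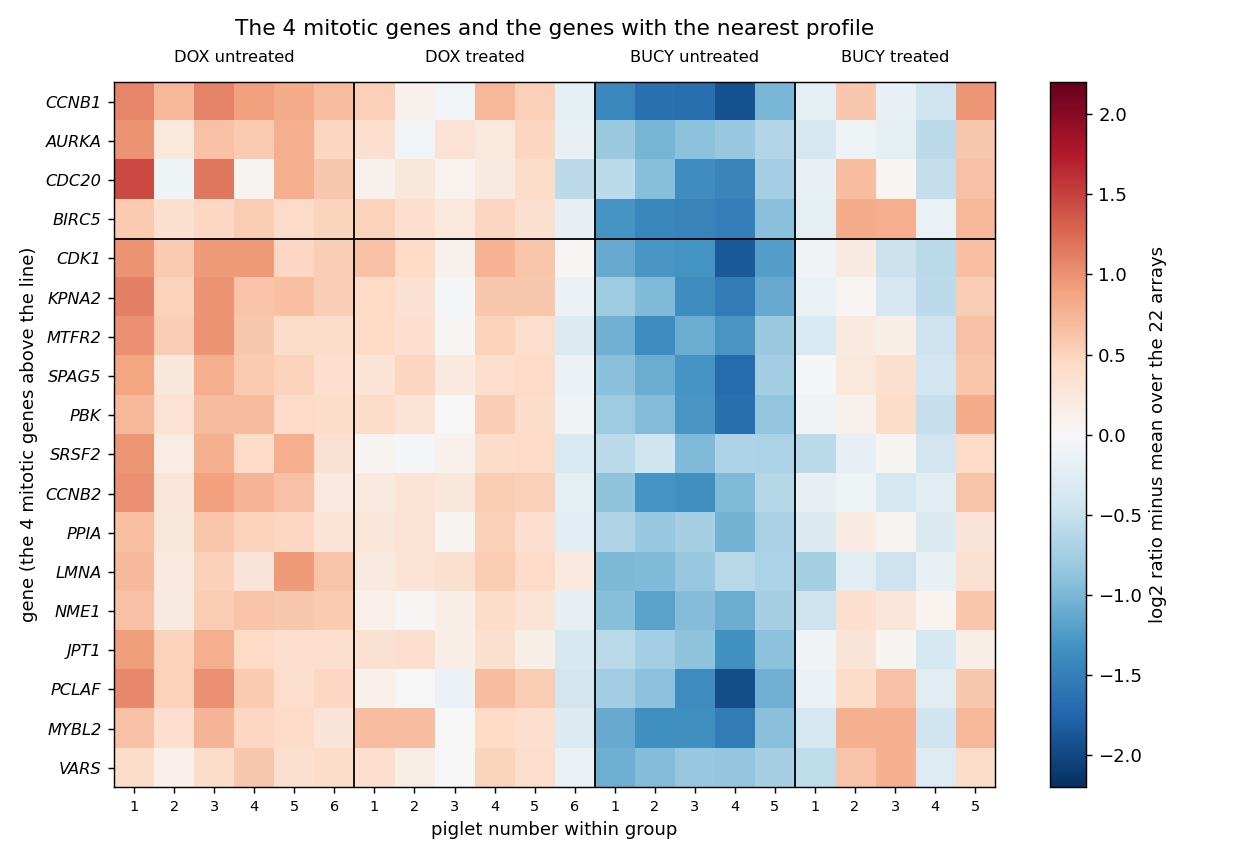
Heat map of log2 ratios centred on their mean over the 22 arrays (columns, by group and piglet number), with the 4 genes above the line and below it genes with a symbol nearest to each by root mean square difference. The ratios drop on the 5 arrays of untreated BUCY piglets, and MYBL2 lies 0.152 from BIRC5, the smallest distance named.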

How the data were processed

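Per the labels, each piglet's RNA carried Cy5 and a pool of all samples Cy3, with 1 array per piglet and no dye swap. The scanner files, as deposited, record the median intensity of spot and background, quality flags (other columns) and, per the file headers, a log10 ratio written by Agilent Feature Extraction (version 10.7.3.1). Mean spot signals had been planned, but the scanner files lack them and medians took their place. A deposited value table holds the authors' log2 ratios, made with Feature Extraction and limma, per the submitters' processing notes, and the sources used here name no further steps. That table matched loess followed by quantile normalisation (r of 0.995 or more on every array, slopes 0.993 to 1.01, column medians 0.00146 to 0.0180), runs in the direction Cy5 over Cy3 and was used as an alternative.

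Signals were corrected with normexp (offset 50) and loess-normalised within arrays with control spots at weight 0, in limma 3.58.1 and R 4.3.3. Outlier spots (0 to 42 per array) were dropped. Each gene was represented by its brightest probe and kept if well above background on at least 5 arrays. An array identifier without a symbol was treated as a gene. Gene symbols and positions came from RefSeq on Sscrofa11.1. One limma fit of 4 group means on all 22 arrays (18 residual and 3.38 prior degrees of freedom) gave the differences and their SE, and was tested on simulated data. Benjamini-Hochberg adjustment ran over all genes. Covariation used 100000 permutations within groups in Python 3.11.15. The number of arrays limits the precision; the labels do not say that piglets of a group came from different litters, so p-values measure the spread between these piglets.

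The 4 genes and all gene lists were chosen with earlier results of these data known. Genes named are the 4, the cell cycle genes past the threshold (up to 12 per direction by smallest p), a short set of well-known cell cycle genes where tested, and the 5 nearest profiles. ANAPC16, BTG2, CASP8, CCND2, CDC16, CDC23, DIABLO, GADD45A, LIN52, PKMYT1, POLD2 and XIAP fall outside these and were chosen after their values were seen. Single marker genes named for their own differences fall outside these too and were picked after their values were seen. Of the well-known set, MKI67, PCNA, PLK1, CCNA2, FOXM1, UBE2C, CDKN1A, INCENP, CDCA8, MAD2L1 and TPX2 were not analysed here. Some genes are not reported here by name and are left out of the figures, though they stay in the counts. Alternatives changed background correction, normalisation, the source of the ratios, the probe filter, the choice of probe, slide and scan day, array weights and the arrays used. Figures were drawn with matplotlib 3.10.9.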

Additional observations from a re-analysis of the deposited data

Results flagged for a closer look

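Single piglets stood far from the rest of their group for 8 of 128 groups of values looked at, by a gap test that chance passes in about 1 of 20 groups. DOX treated piglet 6 was low for CDC20 at -0.38, where the next piglet had 0.26, and for AURKB at -0.0845, where the next had 0.23. Untreated BUCY piglet 4 was low for CDK1 at -2.14 and high for CCND2 at -0.32. HMGB2 was high in BUCY treated piglet 5 at 0.62, a piglet that was high for the 4 mitotic genes too. POLD2 was low in DOX treated piglet 4 at 0.0709, LIN52 high in untreated BUCY piglet 3 at 0.25, and FZR1 high in untreated DOX piglet 5 at 0.69.

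The BUCY and DOX differences pointed opposite ways for CCNB1, AURKA and CDC20, with every treated piglet beyond its untreated mean in that direction. The difference of the differences was 2.29, 1.13 and 1.74, and it was not tested, since the genes were chosen on these values. For 13 other cell cycle genes it passed limma's adjusted p of 0.05: CDC25C 1.80, MYBL2 1.72, CDK1 1.60, CDKN3 1.56, PBK 1.54, CCNB2 1.34, CHEK2 1.06, PRIM1 0.97, CKS1B 0.96, HMGB2 0.95, AURKB 0.76, PRIM2 0.74 and STMN1 0.68. The untreated BUCY piglets, lower than the untreated DOX piglets for all 13 (limma), enter each of these values.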

How the results depend on the processing

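The differences of the 4 mitotic genes kept their sign under every alternative and with each array left out in turn, and most moved by less than the SD between piglets. The exceptions were as follows, and their cause was not tested. With median centring the BUCY difference was 1.19 for CCNB1 and 1.23 for BIRC5, and the untreated difference of BIRC5 was -2.16. With the scanner software's log ratios AURKA gave 1.20 for BUCY, 1.78 for BUCY minus DOX and -2.23 between untreated groups; without a normexp offset it gave 1.46 and -1.89 for the latter comparisons. With Cy5 alone BIRC5 gave 2.42, 2.59 and -2.43. In the BUCY effect the cell cycle genes called went from 18 to 6 with median centring, 8 without the 6 arrays with a suffix to their title and 10 with 2 groups in the fit (15 to 22 leaving out single arrays). All genes called went from 4277 to 2298 with slide as a fixed block, 1125 without BUCY treated piglets 2 and 3, 1482 without the suffix arrays and 897 with 2 groups (2282 to 6289, lowest without BUCY treated piglet 2, and 2540 without piglet 3).

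In the DOX effect 0 cell cycle genes became 2 with scaling between arrays, 1 without BUCY treated piglets 2 and 3, 3 with array weights and 1 with 2 groups (0 to 1, the 1 without DOX treated piglet 4). All genes went from 210 to 89 with median centring, 682 with scaling, 135 with Cy5 alone, 349 and 355 with slide as a fixed or random block, 493 without BUCY treated piglets 2 and 3, 1275 with array weights and 745 with 2 groups (119 to 359). For BUCY minus DOX the 13 cell cycle genes became 0 with median centring, 8 with Cy5 alone and 7 without the suffix arrays (13 to 18), and 1455 genes became 104, 752 and 330, or 732 without BUCY treated piglets 2 and 3 (938 to 2392, with 938 without DOX treated piglet 6, 941 without BUCY treated piglet 2 and 2392 without piglet 1). The 6239 genes of the untreated difference became 3850 with median centring. With slide as a fixed block the DOX differences of the 4 genes were all nearer 0, from -0.42 for CCNB1 to -0.07 for BIRC5, and those of CDC20 (-0.34) and BIRC5 moved by over 1.5 times. AURKA and BIRC5 deviated together less with the scanner log ratios (r = 0.493, permutation p adjusted 0.0992, against adjusted 0.00488 as reported), and the 6 pairs passed in the other settings run.

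Quantile normalisation between arrays and its values were added after seeing the data. Aquantile leaves log ratios as they are by construction, and BUCY minus DOX has no fit of 2 groups. No paired analysis was possible because each piglet belongs to 1 group and its number follows only the order of the arrays.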
